A study of Sus scrofa domesticus with 4 samples.

Results

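HIF1A and 4 genes that hypoxia-inducible factor controls, ADM, P4HA1, VEGFA and LDHA, were followed in porcine anterior pituitary cells cultured with or without adiponectin. The members were all non-control probes whose RefSeq accession belongs to 1 of these 5 genes in the annotation of Sscrofa11.1. This gave 13 probes of 43603 on the array: 2 for HIF1A, 1 for ADM, 7 for P4HA1, 2 for VEGFA and 1 for LDHA. The genes were chosen with their treated over control ratios already known, so those ratios are given as a description, with standard errors and no test. Gene names could be given to 5578 probes, which covered 2459 genes.

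HIF1A encodes the oxygen-regulated alpha subunit of the transcription factor HIF-1. When oxygen is plentiful the HIF1A protein is hydroxylated on prolines, bound by the VHL ubiquitin ligase and destroyed, and when oxygen is short it persists and pairs with ARNT on hypoxia response elements. Much of this control acts on the protein, which arrays do not measure, although inflammatory and growth factor signals can also raise the transcript. ADM encodes adrenomedullin, a vasodilator peptide, and VEGFA the main growth factor of endothelial cells. P4HA1 encodes a catalytic subunit of the prolyl hydroxylase that stabilises collagen, and LDHA the lactate dehydrogenase subunit that favours the conversion of pyruvate to lactate. In the pituitary, a richly vascularised gland, VEGFA is made by endocrine and folliculostellate cells.

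The treated group was cells incubated for 24 h with 10 µg/ml recombinant human adiponectin (a hormone that fat tissue releases), and the control group was cells incubated without it. Both groups were primary cells dispersed with trypsin from anterior pituitaries of gilts (Large White x Polish Landrace, 7 to 8 months old) on days 10 to 12 of the oestrous cycle, days that 1 label calls a period of pregnancy. Both were precultured for 48 h with serum and then kept in serum-free medium with bacitracin, under a gas that the labels give as 95% O2 and 5% CO2. RNA of both groups was hybridised together on 4 two-colour arrays. By the labels of the channels, treated RNA was red (Cy5) on arrays 1 and 3 and green (Cy3) on arrays 2 and 4. The labelling protocol instead reads as treated RNA in Cy5 throughout. Values under that reading are given beside the results of the members and of most other hypoxia genes named. They are not given for cell type markers or for genes of a pattern like that of HIF1A. The design text names 4 individuals, but no label ties a gilt to an array. The spread between these arrays may thus be technical.

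All 4 arrays lay on 1 slide. Between 25089 and 29734 probes per array were well above background in treated RNA, and between 27302 and 27695 in control RNA. Of the anterior pituitary markers on the array, 14 of 14 were well above background, among them the hormone genes GH1, PRL, POMC, LHB, FSHB, TSHB and CGA. For 25912 probes, log2 ratios of red over green were modelled in limma by treatment and by dye. Standard errors of both terms use limma's moderated variance, which draws each probe's variance towards a value estimated from all tested probes. They do not measure the spread of a single probe over its own arrays alone. For a probe with values on all 4 arrays, the dye term equals the treated over control ratio under the labelling protocol's reading. A dye effect and a treatment effect under that reading thus cannot be told apart. With Benjamini-Hochberg adjustment the treatment term called 0 probes at an adjusted p under 0.05 (0% of those tested), and 717 had an unadjusted p under 0.05. Red over green ratios correlated positively across probes in each of the 6 pairs of arrays (r from 0.26 to 0.57), so the treated over control ratios of arrays of opposite orientation correlated negatively (r from -0.48 to -0.43). Ratios on single arrays below are not corrected for dye, and fitted ratios are.

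Of the 13 probes, 12 were tested, and each of the 13 was well above background in both channels of all 4 arrays, with no saturated spot. The remaining probe, P4HA1 probe A_72_P681006, had an uneven local background on arrays 1 and 3 and was left with 2 values. The fitted log2 ratio of treated over control cells was below 0 for 11 of the 12 tested probes, where it was below 0 for 49.3% of all probes tested. That count follows from how the genes were chosen, and with Cy5 read as treated RNA throughout it was 3 of 12. None of the 12 probes was below 0 on all 4 arrays, which 3.07% of all probes tested were.

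**Figure D1:**
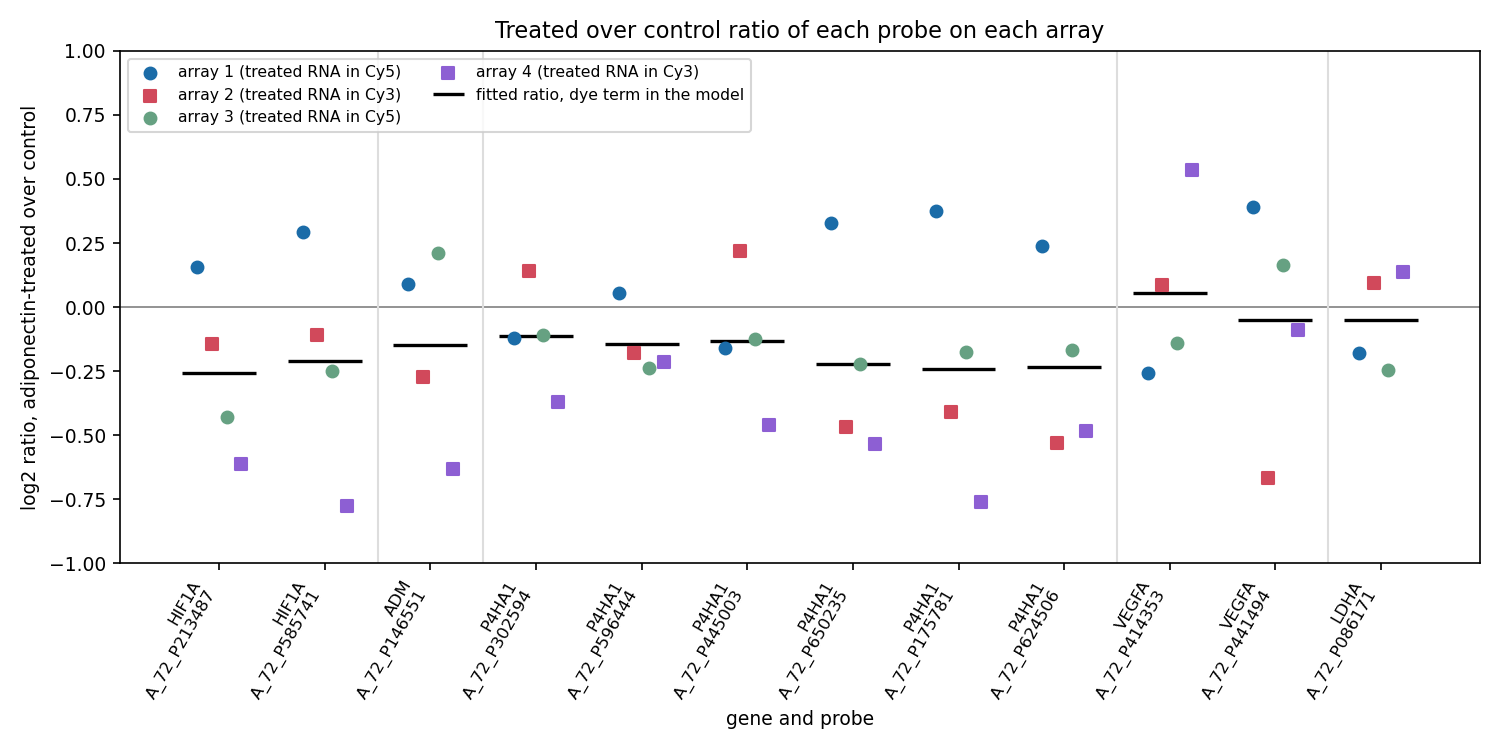
Log2 ratio of adiponectin-treated over control cells (vertical axis) for the 12 tested probes of the 5 genes (horizontal axis). Points are single arrays, circles for treated RNA in Cy5 and squares for treated RNA in Cy3, and bars are fitted ratios. Array 4 gives the lowest value for both HIF1A probes and for ADM, and the highest for 1 VEGFA probe.

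Both probes of HIF1A had fitted ratios below 0. The brighter probe, A_72_P213487, had normalized log2 signals of 13.43, 12.59, 13.11 and 13.00 in treated cells on arrays 1 to 4, against 13.28, 12.73, 13.54 and 13.61 in control cells. The treated signal was the higher one on array 1 and the lower one on arrays 2, 3 and 4, and the ranges of the groups overlapped. Its ratios on arrays 1 to 4 were 0.15, -0.14, -0.43 and -0.61, with a fitted ratio of -0.26 ± 0.11 (SE, n = 4 arrays), a 0.836-fold level. In this bulk RNA, fewer cells of a type and less RNA per cell cannot be told apart. The mean log2 signals were 13.03 ± 0.35 in treated cells and 13.29 ± 0.40 in control cells (SD, n = 4 each). Treated and control RNA were paired by array, so these SDs are not the error of their difference. The SE of the fitted ratio estimates that error, with a variance drawn towards that of other probes. The residual SD of this probe about the fit was 0.375 on the log2 scale. From its own 4 arrays alone the SE would be larger. The second HIF1A probe, A_72_P585741, had normalized log2 signals of 10.71, 9.81, 10.36 and 9.89 in treated cells, against 10.41, 9.92, 10.61 and 10.66 in control cells. Its arrays came in the same order, with ratios of 0.29, -0.11, -0.25 and -0.78 and a fitted ratio of -0.21 ± 0.12 (SE, n = 4 arrays). Its residual SD was 0.430, and here too the SE would be larger from its own arrays alone.

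The size of the HIF1A ratio depended on which arrays were used. With 1 array left out, the fitted ratio of the brighter probe ran from -0.40 without array 1 to -0.11 without array 3, and was -0.38 without array 2 and -0.14 without array 4. The second probe ran from -0.38 without array 2 to -0.04 without array 4. With the labelling protocol's reading (Cy5 for treated RNA throughout) the ratios of the probes were 0.12 and 0.23, above 0 for both. The dye term is that same estimate, and the choice of genes did not use it. In the fit with both terms it was 0.12 ± 0.11 and 0.23 ± 0.12 (SE, adjusted p = 0.532 and 0.269 by limma), not called for either probe.

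Of the partners and regulators of HIF1A, 5 were tested. EPAS1, which encodes the alpha subunit of HIF-2, had ratios of 0.05, -0.01, -0.01 and 0.09 on arrays 1 to 4 and a fitted ratio of 0.03 ± 0.06 (SE). CITED2, whose protein competes with HIF-1 for the coactivator p300, had -0.07 ± 0.07, and EP300, which encodes p300, had -0.05 ± 0.06. RACK1, a scaffold protein that promotes oxygen-independent loss of HIF1A in human cells, had -0.09 ± 0.06, with the opposite sign in its 3 other probes. HSP90AA1, a chaperone that stabilises the HIF1A protein, had 0.05 ± 0.08 from 3 arrays, with the opposite sign in its 4 other probes. None of the 5 passed the threshold in the limma fit (adjusted p = 0.9999 for each). With Cy5 read as treated RNA throughout, RACK1 was at 0.40 and passed it (adjusted p = 0.0116 by limma), with its sign turned. Under that reading CITED2, EP300 and HSP90AA1 were at 0.23, 0.14 and 0.16 and EPAS1 at -0.01, and none of these 4 passed. ARNT, EGLN1 to EGLN3 and VHL were not analysed here.

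ADM was measured by 1 probe, and its level varied more between arrays than between treated and control cells. Treated cells had normalized log2 signals of 13.67, 13.98, 13.01 and 12.47 on arrays 1 to 4, against 13.58, 14.25, 12.80 and 13.10 in control cells. The means were 13.28 ± 0.68 in treated cells and 13.43 ± 0.63 in control cells (SD, n = 4 each). Array 2 was the highest in both groups, and the mean of the channels differed 2.51-fold between the highest and lowest array. The SD of that mean over arrays was 0.63 for ADM on the log2 scale, where the median SD of all probes measured on 4 arrays was 0.15 and the upper decile 0.34. Of the 12 tested member probes, 11 lay above that median. P4HA1 probe A_72_P650235 also lay above the upper decile, at 0.36. The ADM ratios were 0.09, -0.27, 0.21 and -0.63, above 0 on both arrays with treated RNA in Cy5 and below 0 on both arrays with treated RNA in Cy3. The fitted ratio was -0.15 ± 0.08 (SE, n = 4 arrays), 0.902-fold. Left-out arrays moved it from -0.24 without array 2 to -0.06 without array 4. The dye term of ADM was 0.30 ± 0.08 (SE, adjusted p = 0.0574 by limma), larger in size than the fitted treatment ratio but not called. The ADM ratio was 0.30, of the opposite sign, with Cy5 read as treated RNA throughout.

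The 4 tested receptor genes of adrenomedullin all had fitted ratios above 0, and none passed the threshold (adjusted p = 0.9999 by limma). CALCRL, which encodes the receptor, had 0.10, 0.14, 0.13 and 0.08 on arrays 1 to 4, above 0 on every array, and a fitted ratio of 0.11 ± 0.06 (SE). Its unadjusted p was 0.106 in the limma fit, and its 2 other probes had the same sign. RAMP2 and RAMP3, whose proteins give the receptor its preference for adrenomedullin, had 0.05 ± 0.06 and 0.01 ± 0.07. RAMP1, whose protein makes the same receptor a CGRP receptor, had 0.09 ± 0.07. RAMP3 was at -0.04 without array 4. With Cy5 read as treated RNA throughout, RAMP3 was at -0.23 and passed the threshold (adjusted p = 0.0448 by limma), RAMP1 was at -0.07, and CALCRL and RAMP2 were at 0.00 and 0.03.

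**Figure D2:**
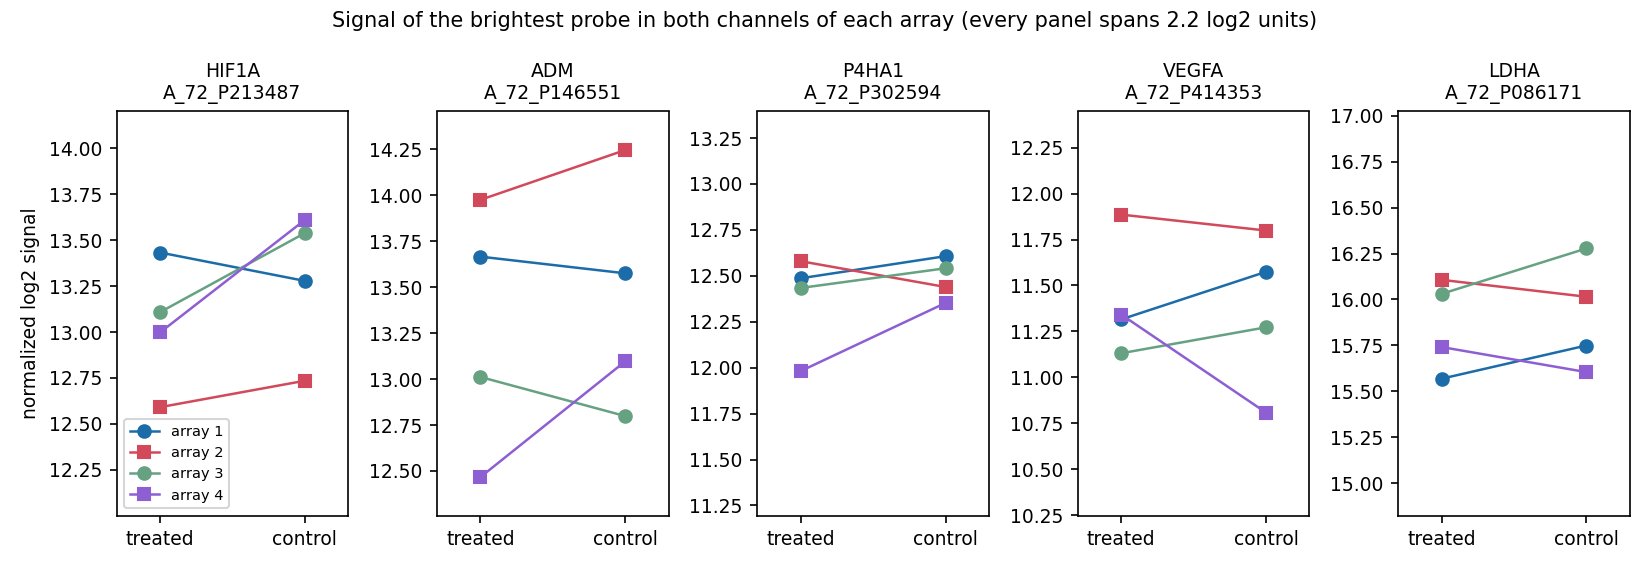
Normalized log2 signal (vertical axis) of the brightest probe of each gene in treated cells (left) and control cells (right), with a line for each array, and panels of equal span. Of these probes, that of ADM differs most between arrays, and no gene has all 4 lines slanting the same way.

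P4HA1 had 6 tested probes, and the fitted ratio of each was below 0, from -0.24 to -0.11. The brightest probe, A_72_P302594, had normalized log2 signals of 12.49, 12.58, 12.43 and 11.98 in treated cells, against 12.61, 12.44, 12.54 and 12.35 in control cells. The treated signal was lower on arrays 1, 3 and 4 and higher on array 2. Its ratios were -0.12, 0.14, -0.11 and -0.37, and the fitted ratio was -0.11 ± 0.09 (SE, n = 4 arrays), 0.924-fold. Without array 4 it was 0.01, and without array 2 it was -0.24.

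The probes of P4HA1 fell into 2 patterns, a description made after the values were seen. A_72_P302594 and A_72_P445003 were below 0 on array 1 and above 0 on array 2, at -0.16 and 0.22 for A_72_P445003. A_72_P650235, A_72_P175781 and A_72_P624506 had the reverse, with 0.33, 0.38 and 0.24 on array 1 and -0.47, -0.41 and -0.53 on array 2. A_72_P596444 lay between, with 0.06 and -0.18. The probes thus differed in sign on arrays 1 and 2, where the treated RNA carried different dyes. On array 3 the 6 probes were close together, from -0.24 to -0.11, with an SD of 0.05 among probes, against 0.32 on array 2. On array 4 all 6 were below 0, from -0.76 to -0.21. The dye terms are computed from these same array ratios, so sorting the probes by arrays 1 and 2 favours a like division in them. They were -0.01, 0.00 and 0.05 for A_72_P445003, A_72_P302594 and A_72_P596444, and 0.28, 0.34 and 0.27 for the other three. None of these dye terms was called by limma (adjusted p from 0.0811 to 0.999).

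On A_72_P175781, a probe of the second pattern, treated cells had log2 signals of 11.30, 10.37, 11.24 and 10.63, against 10.93, 10.78, 11.42 and 11.39 in control cells. The treated signal was higher on array 1 only. The fitted treatment ratios followed the same division. They were -0.11 ± 0.09, -0.14 ± 0.07 and -0.13 ± 0.10 (SE) for A_72_P302594, A_72_P596444 and A_72_P445003. For A_72_P650235, A_72_P175781 and A_72_P624506 they were -0.22 ± 0.09, -0.24 ± 0.10 and -0.23 ± 0.08. This division was not seen with every set of arrays. Without array 3 the first 3 probes were at -0.12, -0.07 and -0.14 and the others at -0.09, -0.10 and -0.13. Without array 2 they were at -0.24, -0.15 and -0.30, and the others at -0.24, -0.33 and -0.22. With normexp fitted on all spots A_72_P624506 was at -0.16, within the range of the first 3. The mean over the 6 probes was -0.18, further from 0 than the brightest probe. The untested probe A_72_P681006 had -0.34 on array 2 and -0.43 on array 4, and with its uneven spots kept, a choice made after the data were seen, its fitted ratio was -0.22. With Cy5 read as treated RNA throughout, 5 of the 6 tested probes were above 0, from 0.0007 to 0.34, and A_72_P445003 was at -0.01. No other gene of the list on collagen hydroxylation and cross-linking was analysed here.

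**Figure D3:**
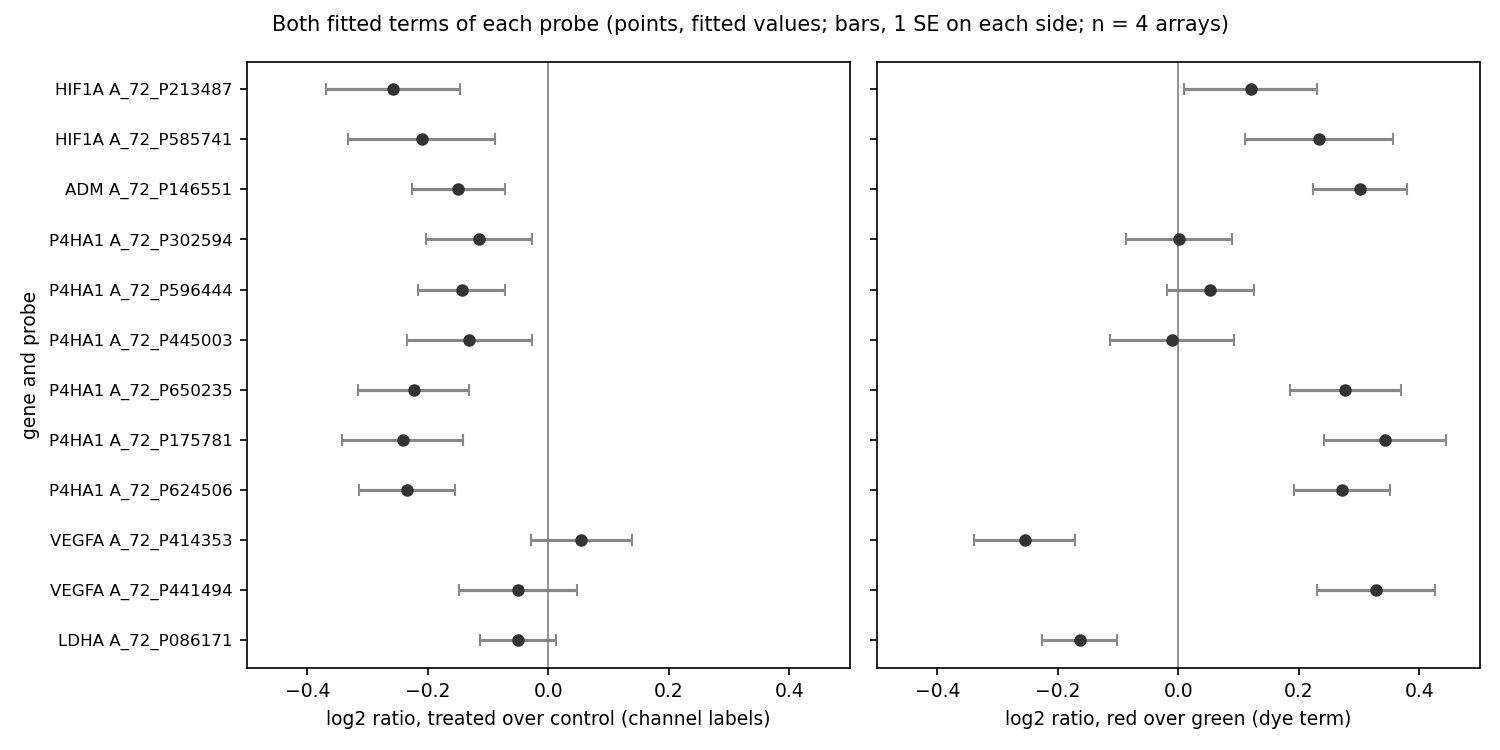
Fitted log2 ratios of the 12 tested probes (rows), for treated over control cells at left and red over green at right. Points are fitted values and bars 1 SE on each side (n = 4 arrays). The dye terms of the VEGFA probes lie on opposite sides of 0, at -0.26 and 0.33, and 3 P4HA1 probes have dye terms between 0.27 and 0.34.

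The 2 probes of VEGFA had opposite signs on every array. The brighter one, A_72_P414353, had normalized log2 signals of 11.32, 11.89, 11.13 and 11.34 in treated cells, against 11.57, 11.80, 11.27 and 10.81 in control cells. Its ratios were -0.26, 0.09, -0.14 and 0.53, below 0 with treated RNA in Cy5 and above 0 with treated RNA in Cy3. The other, A_72_P441494, had log2 signals of 10.52, 10.45, 10.61 and 10.16 in treated cells, against 10.13, 11.12, 10.44 and 10.25 in control cells. Its ratios were 0.39, -0.67, 0.16 and -0.09, the reverse order of signs. Their dye terms were -0.26 ± 0.08 and 0.33 ± 0.10 (SE, adjusted p = 0.105 and 0.0844 by limma), not called for either probe. After the dye term, the fitted ratios were 0.06 ± 0.08 and -0.05 ± 0.10 (SE, n = 4 arrays), both smaller than their standard errors. Their mean was 0.002. The sign turned without array 4 for the brighter probe, at -0.06, and without array 2 or 3 for the other, at 0.09 and 0.01. Under the labelling protocol's reading the probes were at -0.26 and 0.33, each with its sign turned. The sign of the fitted VEGFA ratio thus differed between its probes and between sets of arrays.

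Values of the other angiogenic genes lay on both sides of 0. FLT1, a receptor of VEGFA, had a fitted ratio of 0.06 ± 0.07 (SE), with 0.13, -0.01, -0.01 and 0.11 on arrays 1 to 4. ANGPT1 and ANGPT2, ligands of the TIE2 receptor with opposed effects on vessel stability, had -0.10 ± 0.07 and 0.10 ± 0.09. ANGPTL4, a lipase inhibitor that hypoxia induces in many cell types, had -0.01 ± 0.08. Of these 4 genes, 2 had higher and 2 lower values, and none passed the threshold (adjusted p = 0.9999 by limma). Under the reading of the labelling protocol FLT1, ANGPT1, ANGPT2 and ANGPTL4 were at 0.00, -0.11, -0.02 and 0.14, and none passed.

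LDHA was measured by 1 probe, whose residual SD about the fit, 0.040 on the log2 scale, was the smallest of the 12. Treated cells had normalized log2 signals of 15.57, 16.11, 16.03 and 15.74, against 15.75, 16.01, 16.28 and 15.60 in control cells. Its ratios were -0.18 and -0.25 with treated RNA in Cy5, on arrays 1 and 3, and 0.09 and 0.14 with treated RNA in Cy3, on arrays 2 and 4. The fitted ratio was -0.05 ± 0.06 (SE, n = 4 arrays), 0.966-fold, beside a dye term of -0.16 ± 0.06 (adjusted p = 0.148 by limma). These moderated SEs are larger than the residual SD of this probe over its own 4 arrays would give. With 1 array left out the fitted ratio stayed between -0.07 and -0.03. With median centring of the arrays in place of loess it was 0.05, so its sign depended on the normalization. Read with treated RNA in Cy5 throughout, it was -0.16.

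Of 10 other tested genes of glucose uptake, glycolysis and lactate, 4 had higher and 6 lower fitted ratios, with a median of -0.02, where the median of all named genes tested was 0.01. The lowest were HK2, the inducible hexokinase, at -0.07 ± 0.08 (SE), and SLC16A1, a lactate transporter, at -0.05 ± 0.07. The highest were ENO3, the muscle enolase, at 0.09 ± 0.06, and LDHB, the other main lactate dehydrogenase subunit, at 0.04 ± 0.07. The 2 other probes of SLC16A1 and 1 of the 9 other probes of LDHB had the opposite sign. This order did not hold with Cy5 read as treated RNA throughout: SLC16A1 was the highest of the 10, at 0.37 (adjusted p = 0.0128 by limma), PFKM the lowest, at -0.45 (adjusted p = 0.00737), and LDHB was at -0.05. HK2 was at 0.04 without array 2. Of the 10 genes, 0 passed the threshold (adjusted p = 0.9999 by limma) and 0 had an unadjusted p under 0.05.

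Among 12 other targets of hypoxia, 9 had lower and 3 higher fitted ratios, with a median of -0.02. The lowest were ERO1A, an oxidase of the endoplasmic reticulum, at -0.18 ± 0.09 (SE), and EDN1, which encodes endothelin-1, at -0.17 ± 0.09. ERO1A had 0.09, -0.18, 0.07 and -0.69 on arrays 1 to 4, with array 4 lowest as for HIF1A, and a fitted ratio of -0.05 without that array. EDN1 had -0.03, 0.02, -0.59 and -0.10, with array 3 lowest, and a fitted ratio of -0.04 without that array. The highest were TF, the iron carrier transferrin, at 0.08 ± 0.08, and TGFB3, a growth factor, at 0.03 ± 0.07. By the labelling protocol's reading ERO1A was at 0.26, EDN1 at -0.14, TF at -0.10 and TGFB3 at -0.33 (adjusted p = 0.0199 by limma, the only one of these 4 to pass). None of the 12 genes reported here passed the threshold (adjusted p = 0.9999 by limma), and 0 had an unadjusted p under 0.05.

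**Figure D4:**
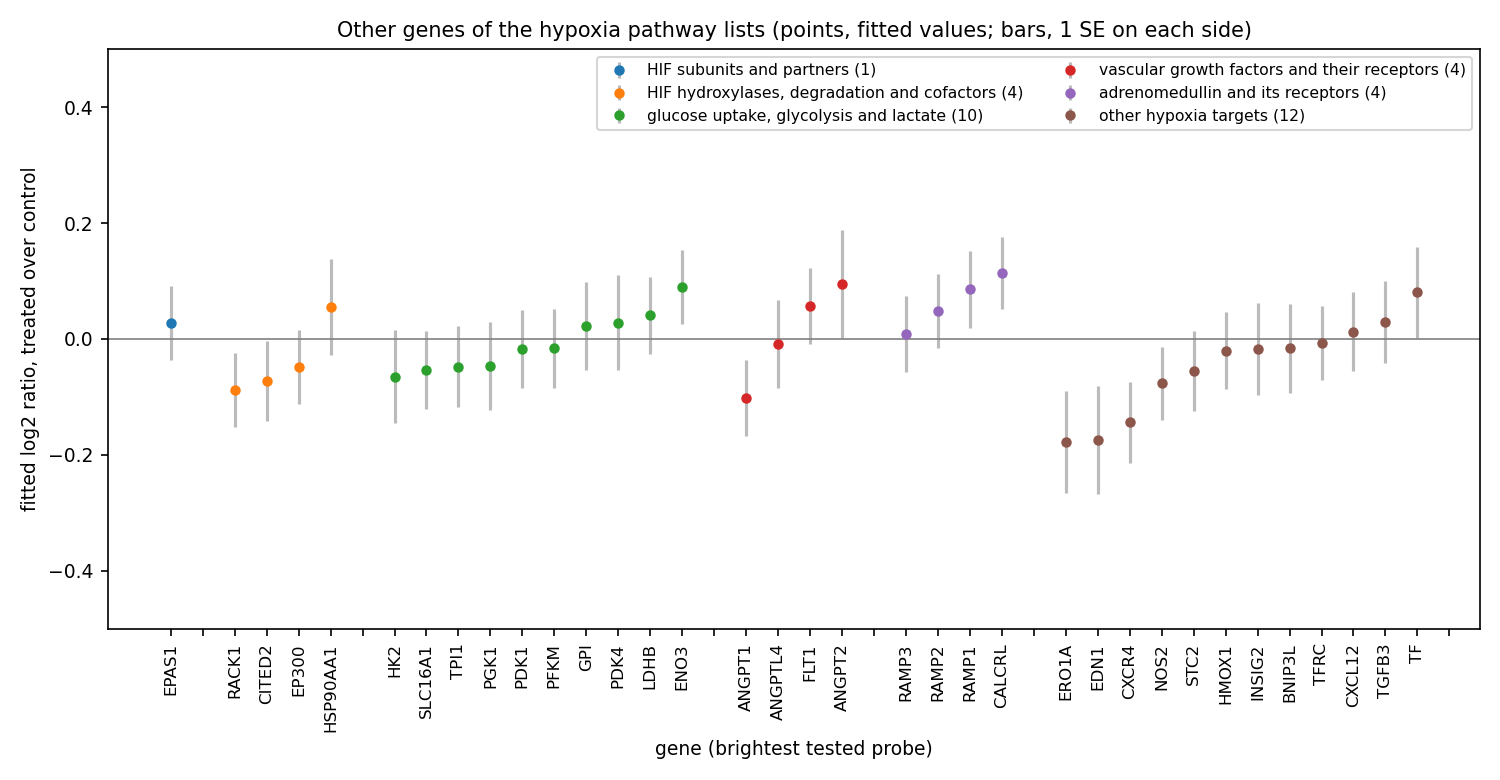
Fitted log2 ratio of treated over control cells (vertical axis) for the 35 other tested genes of the hypoxia lists, by their brightest probe (horizontal axis, grouped by list). Points are fitted values and bars 1 SE on each side, with dyes as the channel labels give them. ERO1A and EDN1 lie at -0.18 and -0.17, and with Cy5 read as treated RNA throughout they were at 0.26 and -0.14.

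Over all lists, 35 genes beside the 5 members were tested by their brightest probe, of 40 on the array. Of these, 15 had higher and 20 lower fitted ratios, with a median of -0.02, where 46.4% of all 1956 named genes tested were below 0. None of the 35 genes reported here had an adjusted p under 0.05 in the limma fit (0% of all probes tested had one), and 0 had an unadjusted p under 0.05, where 41 of the 1956 named genes and 2.77% of all probes tested had one. With Cy5 read as treated RNA throughout, 8 of the 35 passed the threshold (adjusted p under 0.05 by limma, 3 higher and 5 lower), where 9% of all probes and 10.4% of named genes did so. The 12 member probes included 0 that passed under that reading, with adjusted p from 0.0616 to 0.998. The dye term of the fit with both terms called 0 of the 12, where it called 6.21% of all probes tested. It called 7 of the 12 without array 2, where it called 6152 of 25337 probes tested. Without array 4 it called 5 of the 12, and 5667 of 25157 probes. With separate channels it called 2 of the 12, and 3796 of 25037 probes. With no filter on dim probes it called 1 of the 12, and 2251 of 42278 probes. In the reported fit the dye term was above 0 for 9 of the 12, where it was above 0 for 51% of all probes. The 12 probes stand for only 5 genes.

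Array 4 held the lowest treated over control ratio for both probes of HIF1A, for ADM, and for 4 of the 6 tested probes of P4HA1. On that array 10 of the 12 probes were below 0, the exceptions being LDHA at 0.14 and the brighter VEGFA probe at 0.53. On array 1, 8 of the 12 were above 0. These ratios are not corrected for dye, and 6 of the 12 probes are of P4HA1. The shares of all probes on single arrays were not counted. The median fitted ratio of the 12 probes was -0.15, and it ran from -0.24 without array 2 to -0.10 without array 3 or array 4. It was -0.07 with median centring in place of loess, and 0.18 with Cy5 read as treated RNA throughout.

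**Figure D5:**
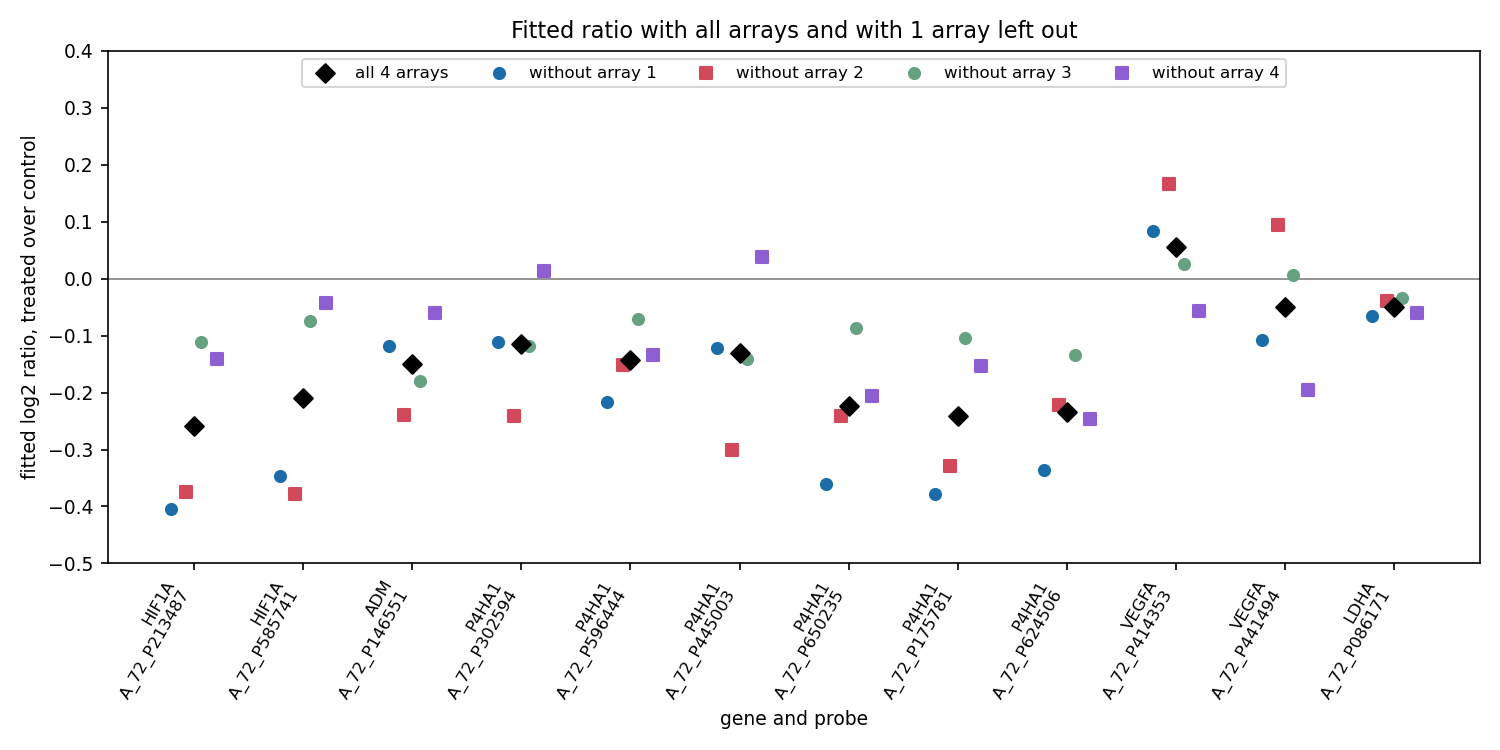
Fitted log2 ratio of treated over control cells (vertical axis) of the 12 tested probes (horizontal axis) with all 4 arrays (diamonds) and with each array left out (circles and squares). Both HIF1A probes stay below 0, from -0.40 to -0.04, while both VEGFA probes have values on both sides of 0.

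The genes whose array ratios lay nearest to those of the brighter HIF1A probe were sought among 1843 other named genes with values on 4 arrays, by the root mean square difference over the 4 ratios. The nearest was CXCL8, a neutrophil chemokine, at a difference of 0.107, with ratios of 0.07, -0.22, -0.25 and -0.65. The splicing factor gene SF3B1 followed at 0.165, then AKAP12 at 0.169, the cytokine gene IL1A at 0.169 and VSTM4 at 0.182. Each of the 5 was lowest on array 4, as the HIF1A probe was, which the way they were picked favours. For the other members the difference was 0.282 for P4HA1, 0.329 for ADM, 0.436 for LDHA and 0.636 for VEGFA, each by its brightest probe.

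Cell type markers were read beside these ratios, by the fitted ratio of treated over control cells. Markers of the anterior pituitary hormone cells had lower ratios for 9 of 13 tested and higher for 4, with a median of -0.07, from -0.17 for CHGB to 0.08 for GNRHR. Their summed linear signal ran from 157652 to 300274 in treated cells and from 166541 to 288041 in control cells. The 4 tested endothelial markers lay between -0.01 and 0.06, and their summed linear signal ran from 734 to 1548 in treated cells and from 726 to 1690 in control cells. The 3 tested folliculostellate markers ran from -0.12, for ANXA1, to 0.10, for SOX2. On array 4 ANXA1 was at -0.48, SOX2 at 0.19 and SOX9 at 0.25. The 3 tested markers of fibroblasts and pericytes lay between 0.01 and 0.04, and the 4 of macrophages between -0.04 and 0.02. From the posterior lobe and neural list, 2 of 4 markers reported here were tested, with OXT at 0.07 and MBP at 0.03. Of the 8 lymphocyte markers on the array, 4 were above background in no channel of any array. The part of any cell type in the ratios was not tested.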

How the data were processed

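Values were taken from 4 two-colour arrays. Agilent Feature Extraction 10.7.3.1 read the images of array design 026440, per the file headers. The deposited scanner files hold linear intensity per spot and channel (median foreground and local background) and red over green as a log10 ratio. The deposited series matrix holds log2 ratios, which matched the scanner's processed signals within 0.01 for 99.99% of probes on each array once signs followed the channel labels, with column medians of -0.04, 0.08, 0.04 and -0.05.

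Background was corrected with normexp (offset 50), leaving out the 939 to 1350 of 43803 spots per array of uneven local background and the 29 to 45 feature outliers, which removed the CGA probe. Ratios were normalized by loess, with control spots at weight 0. Signals of single channels also had quantile normalization of the mean level. A probe was tested if well above background in treated or in control RNA on at least 3 of 4 arrays, with values on at least 3 (25912 probes). limma 3.58.1 in R 4.3.3 fitted a dye and a treatment term with moderated variances (eBayes). Its two-sided p-values were adjusted by Benjamini-Hochberg across every tested probe (threshold 0.05). Treated and control RNA are paired by their array. The fit was tested on simulated data. The tested probe of highest mean signal stood for a gene. Named were all probes of the 5 members, every tested partner and regulator of HIF1A, and per list the 2 highest and 2 lowest genes with 4 arrays, or the whole list if it held 4 or fewer. The members and lists were chosen with earlier results of these data known. From the lists of pathway and marker genes, 2 genes are not reported here and are left out of their counts. The number of arrays limits the precision. Symbols come from RefSeq annotation of Sscrofa11.1, used for names only.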

Additional observations from a re-analysis of the deposited data

Results flagged for a closer look

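Among 75 sets of 4 array values (ratios and channel signals of the members, ratios of the other hypoxia genes and medians of their lists), 0 had 1 array far from the other three by Dixon's criterion for 4 samples, where chance gives about 3.75 (1 in 20). That share assumes independent sets without a dye effect. The ratios were not corrected for dye, and the sets of a probe depend on each other. The count therefore does not show that no array deviates.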

How the results depend on the processing

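Under the 10 planned settings with 4 arrays and the channel labels, both HIF1A probes, ADM and the 6 P4HA1 probes kept ratios below 0, and the brighter VEGFA probe kept a ratio above 0. Not all of these settings could move the ratios. Either change of the filter on dim probes, leaving out the dye term and separate channels leave them unchanged by construction. The scanner's own log ratio and the series matrix hold the same values. LDHA turned to 0.05 with median centring. The other VEGFA probe turned to 0.01 with median centring and to 0.01 with normexp fitted on all spots. The count of probes called for treatment stayed at 0 in these settings and at an adjusted p under 0.10, and that of hypoxia genes at 0. With Cy5 read as treated RNA throughout, 2331 probes and 8 hypoxia genes were called, and the median of the member probes was 0.177. With 1 array left out, the probes called ran from 0 (without array 1) to 832 (without array 4), with 725 without array 2 and 1 without array 3, and the hypoxia genes called from 0 to 1 (ERO1A without array 2, HSP90AA1 by another probe without array 4). Each such fit holds a single array of one orientation. The dye term called 1608 probes, against 3796 with separate channels, 845 with normexp fitted on all spots, 32 from the scanner's own log ratio, 59 from the series matrix values, 0 with median centring, and 56 to 6152 with 1 array left out, each by limma. The cause of these differences was not tested. Every fit keeps the pairing of the channels by array. The fit of separate channels, where 0 probes were called for treatment, does so through a within-array channel correlation of 0.81.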
